A study of Mus musculus with 6 samples.

Results

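The nuclear genes for the subunits of oxidative phosphorylation (OXPHOS) were followed in primary white adipocytes that received miR-182-5p mimic. Members were all gene symbols in the deposited count lists that begin as the names of NADH dehydrogenase (Nduf followed by a, b, c, s or v and a number), succinate dehydrogenase (Sdha to Sdhd), cytochrome bc1 (Uqcr), cytochrome c oxidase (Cox4 to Cox8 with a letter) or ATP synthase (Atp5 with a letter) genes begin. The pattern found 85 of 22609 listed genes. Of these, 80 encode structural subunits, by name 36 of complex I (with Ndufa4), 4 of complex II, 8 of complex III, 17 of complex IV and 15 of complex V. The other 5 match by spelling but encode other proteins (Ndufa4l2, Cox4nb, Cox7a2l, Atp5s and Atp5sl), and they are given apart. The 13 subunits encoded by mitochondrial DNA are not listed under a symbol and were not analysed here.

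Stromal cells of inguinal fat from male C57BL6 mice, given as 3 weeks old, were differentiated in culture, and RNA was sequenced from 3 samples with control and 3 samples with miR182. The sample labels name electroporation and a control vector, whereas the study's methods describe a miRNA mimic, a lipid reagent and another age. No allele of the mice is named, and the genotype field of the labels holds only the transfection group. Nothing in the labels says whether the 3 samples of a group came from separate cell preparations, so p-values measure only the spread between these samples, which may be technical. The comparison of miR182 with control asked how gene expression differs when miR-182-5p is raised in these adipocytes. Reads counted on genes ranged from 25869810 to 28796712 per sample. Of the 85 members, 82 passed the filter on low counts and were tested among 13117 genes.

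In oxidative phosphorylation, complexes I and II take electrons from NADH and succinate, coenzyme Q and cytochrome c carry them through complex III to complex IV, and oxygen is reduced there. Complexes I, III and IV pump protons across the inner mitochondrial membrane, and complex V, the ATP synthase, uses their return to make ATP. In brown and beige adipocytes the uncoupling protein Ucp1 lets protons return without ATP synthesis and so turns the same respiration into heat.

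The cells carried the markers of adipocytes. The 10 adipocyte markers (such as Adipoq, Fabp4, Lpl and Plin1) summed to between 13582 and 14366 CPM (the read count of a gene relative to its TMM-scaled library size) in control and between 9297 and 10519 CPM in miR182. Fabp4, a fatty acid carrier, and 7 other of these 10 markers fell, with a median log2 fold change of -0.47 over the 10, and progenitor markers fell in 4 of 5 cases, while 23.5% of all genes tested were called lower. Ucp1 had 0 to 6 reads per sample and was not tested. Of the 6 brown and beige fat markers, among them Ucp1, 3 were tested. Of these 3, 1 was lower and 2 did not pass, with log2 fold changes from -0.21 to 0.09. The 6 summed to 18.4 to 21.5 CPM in control and to 16.5 to 17.1 CPM in miR182. Among markers of other cells, Ptprc and Itgam of leukocytes had at most 4 reads in any sample, and Ckm and Myh4 of skeletal muscle had 0 in every sample. Summed macrophage markers were 12.4 to 14.2 CPM in control and 11.3 to 14.0 CPM in miR182, and summed endothelial markers were 8.13 to 9.27 CPM and 5.09 to 5.74 CPM. Muscle markers summed to 26.1 to 27.5 CPM and 36.2 to 39.7 CPM, most of it Acta1. In bulk RNA, fewer cells of a type and less RNA per cell cannot be told apart, and the part of the lower adipocyte markers in the results that follow was not tested.

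The sequences shown first are the miRNA and the places where its seed is matched in member transcripts, since they bear on whether the subunits carry the simplest kind of site. RefSeq places mature miR-182-5p on the minus strand of chr6:30165962-30165986 of GRCm38.p6. In the sequence its seed, bases 2 to 8, is in capitals.
miR-182-5p: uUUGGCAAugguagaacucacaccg
A 7-base match to this seed, TTGCCAA, lay in the 3′-UTR of 3 of the 82 members tested (3.66%), against 1497 of 12529 genes tested that have one (11.9%). The 3′-UTR read was the longest among transcripts paired with RefSeq, or among all annotated ones where none was paired. Member 3′-UTRs were short, with a median of 171 bases against 1096 over those genes. The matching stretches, with the 7 bases in capitals, came from Ndufb2 of complex I, Sdhc of complex II and Uqcrq of complex III.
Ndufb2: attaaagtggcTTGCCAAaaacgaggaac
Sdhc, upstream match: ttgatagatttTTGCCAActctggagtaa
Sdhc, downstream match: tgagtcaggccTTGCCAAgtacccagccc
Uqcrq: tatctgtcatgTTGCCAAtccaacagtgg
Log2 fold changes of these genes were -0.27, -0.15 and -0.18, and the median of all members tested was -0.22. In its account of the qRT-PCR, the study's methods print another mature sequence under the name miR-182-5p, with the seed of the miR-30 family, whereas the target site that its reporter assay describes is complementary to RefSeq's miR-182-5p. RefSeq's mature miR-30c-5p is given for comparison, with its seed in capitals. It has the seed of the printed sequence but differs from that sequence near the 3′ end.
miR-30c-5p: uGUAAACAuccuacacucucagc
Its 7-base match, TGTTTAC, lay in the 3′-UTR of 1 of the 82 members (Ndufv2, 1.22%) and of 1998 of the 12529 genes (15.9%). The sequence of the transfected mimic itself is not given in the sources used here. A match of 7 letters is a description and not a site shown to be used.

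OXPHOS subunit genes were lower across all 5 complexes. Of the 77 structural subunits tested, 69 fell and 0 rose at an adjusted p under 0.05 (quasi-likelihood test of edgeR, p-values adjusted by the Benjamini-Hochberg method across the 13117 genes), and 8 did not pass. Of all genes tested, 23.5% were called lower and 23.2% were called higher by this rule. The median log2 fold change was -0.23 over the 77 subunits, a decrease of 14.8%, against -0.0043 over all genes tested. Called subunits ranged from -0.08 to -1.10 on the log2 scale, so most changes were small. Over all 82 members the groups did not overlap, with each miR182 sample below each control sample, in 71, and 27.5% of all genes showed the same. With a 1.5-fold cutoff added, 2 members were called lower (Cox6b2 and Cox7c) and 0 were called higher, against 5.48% and 1.97% of all genes. At an unadjusted p under 0.05 edgeR also had 0 subunits higher, and DESeq2 and limma-voom each called 0 subunits higher and 1 member, Ndufa4l2, higher without the fold cutoff. With an offset for transcript length, and in the fit without miR182 replicate 1, the subunit Cox6a2 was called higher.

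**Figure D1:**
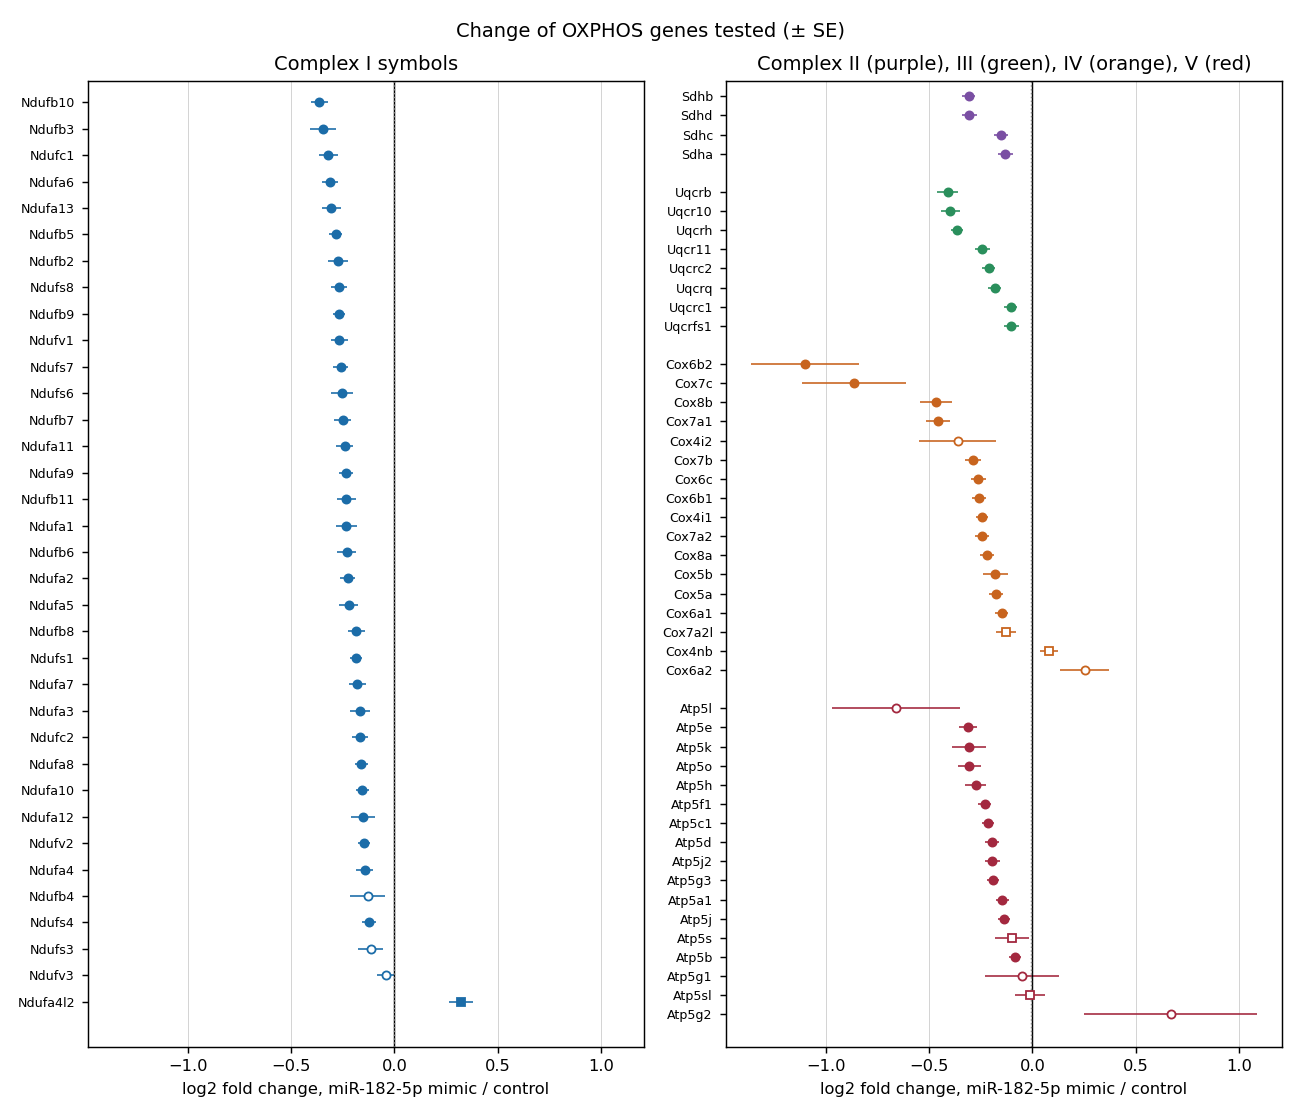
Log2 fold change (miR-182-5p mimic over control) of 81 of the OXPHOS genes tested, with bars of ± 1 standard error from edgeR, 3 samples per group; filled symbols passed an adjusted p of 0.05, open symbols did not, squares are the 5 genes that encode other proteins, and the dotted line is the median of all genes. Filled symbols lie left of 0 for 68 genes and right of 0 for Ndufa4l2 alone, at 0.32.

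Summed over its subunits, each complex was lower in every miR182 sample than in every control sample. All 80 subunit genes together summed to 12832 ± 277 CPM (SD, n = 3) in control and to 11300 ± 218 CPM (SD, n = 3) in miR182. Complex I stood at 85.8%, 85.1% and 88.3% of the control mean in the 3 miR182 samples, and complex IV at 85.1%, 84.2% and 86.7%. Complex V was nearest to control, at 88.8%, 90.7% and 92.6%. One gene weighs on that sum, since Atp5b held 44.99% of the complex V total. As medians of single genes, the complexes were close to each other, at -0.23 for complex I, -0.23 for complex II, -0.23 for complex III, -0.26 for complex IV and -0.20 for complex V on the log2 scale, and no difference between complexes was tested.

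**Figure D2:**
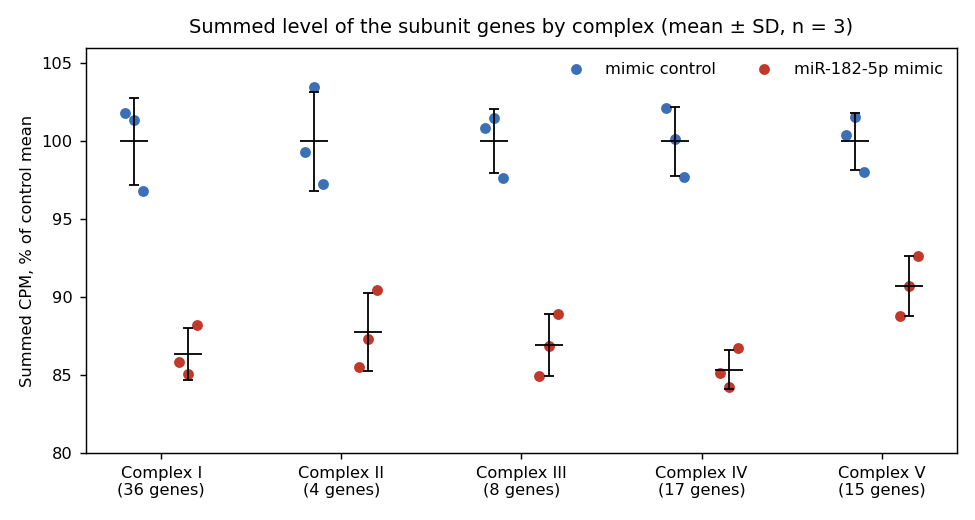
Summed CPM of the subunit genes of each complex as a percent of the control mean, 1 point per sample, with means ± SD (n = 3) and an axis that starts at 80%. The miR182 samples lie between 84.2% and 92.6% and below every control sample in all 5 complexes.

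Complex I, which oxidises NADH, had 32 of 35 tested subunits lower, counted by name and so with Ndufa4 among the accessory subunits. The 7 core subunits of the nuclear genome carry its flavin and iron-sulfur clusters and part of the quinone site. Of these core subunits 6 fell, among them the flavin-binding Ndufv1 (-0.27) and the iron-sulfur subunit Ndufs8 (-0.27), with a median log2 fold change of -0.18 over the 7. Of the 28 accessory subunits tested, 26 fell, with a median of -0.23.
Ndufb9, an accessory subunit of the membrane arm, had the smallest p of complex I and also its highest level per length. Its CPM were 182, 178 and 173 in control and 147, 149.6 and 146 in miR182. The groups did not overlap, and the log2 fold change was -0.27 (SE 0.029, adjusted p = 4.12e-06 by edgeR).
Ndufb5, also of the membrane arm, was at 93.5, 94.5 and 90.0 CPM in control and at 77.3, 75.4 and 75.4 CPM in miR182. Its samples separated by group as well, with a log2 fold change of -0.29 (SE 0.033).
Ndufb10 showed 108, 107 and 101 CPM in control and 81.5, 77.2 and 87.2 CPM in miR182. This was the lowest log2 fold change of complex I, -0.36 (SE 0.043).
The 3 tested subunits that did not pass were Ndufs3 (log2 fold change -0.11, SE 0.061), Ndufb4 (-0.13, SE 0.086) and Ndufv3 (-0.04, SE 0.041), and their groups overlapped. Ndufs3 and Ndufb4 share 35.8% and 37.0% of their 50-base transcript windows with processed pseudogenes, so reads from them can be lost in counting. Ndufv3 shares 0%, and whether shared windows bear on these calls was not tested. Ndufs5 had 0 reads in every sample, which allows up to 3 reads per library. Its processed copy BC002163, which shares 41.2% of the Ndufs5 windows, was listed with 309, 294 and 277 reads in control and 286, 331 and 320 reads in miR182, so the level of Ndufs5 itself cannot be read from these lists.
Ndufa4, named for complex I and counted with it here but now placed in complex IV, had 134, 144 and 134 CPM in control and 132, 117 and 123 CPM in miR182. All 3 miR182 samples were lower, though 1 only narrowly, and the log2 fold change was -0.14 (SE 0.043, adjusted p = 0.013 by edgeR). An offset for transcript length turned its sign, to 0.0046.

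Complex II links the citric acid cycle to the chain and has no subunit from mitochondrial DNA. All 4 genes fell. The iron-sulfur subunit Sdhb had 177, 182 and 172 CPM in control and 141, 144 and 144 CPM in miR182, a log2 fold change of -0.31 (SE 0.030, adjusted p = 1.51e-06 by edgeR). Sdhd, a membrane anchor, went from 212, 228 and 210.0 CPM to 170.2, 173 and 182 CPM, with a log2 fold change of -0.31 (SE 0.036). In both genes the highest miR182 sample lay well under the lowest control sample. The flavoprotein Sdha, the highest of the 4 per length, had 639, 681 and 628 CPM in control and 577, 591 and 612 CPM in miR182. Its groups were closer to each other, with a log2 fold change of -0.13 (SE 0.035), and Sdhc, the other anchor, was at -0.15 (SE 0.032).

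Complex III passes electrons from coenzyme Q to cytochrome c, and all 8 of its genes found by the pattern fell. Uqcrh, the acidic hinge protein that helps dock cytochrome c, had the smallest p among all members. Its CPM were 168, 162 and 162 in control and 129, 125 and 128 in miR182, a log2 fold change of -0.37 (SE 0.029, adjusted p = 1.93e-07 by edgeR), and the groups lay far apart beside the spread within them.
Uqcr10, a small membrane subunit, had 129, 122 and 113 CPM in control and 88.7, 91.8 and 95.7 CPM in miR182. Uqcrb, which binds near the quinone, had 34.2, 34.3 and 33.9 CPM and then 25.9, 24.2 and 27.0 CPM. Neither pair of groups overlapped, with log2 fold changes of -0.40 (SE 0.045) and -0.41 (SE 0.053).
Of the other subunits, the small Uqcr11 was at -0.24 and Uqcrq at -0.18. Uqcrc2, a core protein, was at -0.21 (SE 0.032) and the other core protein Uqcrc1 at -0.11 (SE 0.030). Uqcrfs1, the Rieske iron-sulfur protein, was at -0.10 (SE 0.035). Cytochrome c1, Cyc1, lies outside the name pattern and fell from 274, 275 and 259 CPM to 233, 248 and 257 CPM, a log2 fold change of -0.13 (SE 0.037), its groups apart by a narrow gap between the nearest samples. With the length offset it was at -0.084 (adjusted p = 0.083 by edgeR).

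Complex IV reduces oxygen. Its catalytic core comes from mitochondrial DNA, and the nuclear subunits surround it, several of them as pairs of isoforms for different tissues. Of 15 subunits tested 13 fell. The 2 others were Cox6a2, at 0.25 (SE 0.12, adjusted p = 0.095 by edgeR) with its miR182 samples above control, and Cox4i2, at -0.36 (SE 0.19, adjusted p = 0.13 by edgeR) with its miR182 samples below control.
Cox4i1, a regulatory subunit made in most tissues, had the smallest p and the highest level per length of the complex. It had 565, 573 and 552 CPM in control and 471, 475 and 481 CPM in miR182. The log2 fold change was -0.25 (SE 0.028, adjusted p = 6.24e-06 by edgeR), with no overlap.
Cox6b1, on the side facing cytochrome c, had 260.1, 243 and 243 CPM in control and 208, 203 and 213 CPM in miR182, a log2 fold change of -0.26 (SE 0.033).

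The isoforms known from heart and skeletal muscle did not all pass the test. Cox7a1, which is also used as a marker of brown adipocytes, had 24.3, 25.5 and 23.0 CPM in control and 17.3, 17.3 and 18.3 CPM in miR182. Every miR182 sample was lower, with a log2 fold change of -0.46 (SE 0.059, adjusted p = 2.34e-05 by edgeR). Its partner Cox7a2, made in most tissues, had 125, 125 and 122 CPM and then 109, 99.97 and 105 CPM, a log2 fold change of -0.24 (SE 0.034). Per length, Cox7a1 made up 24.7 ± 0.73% (SD, n = 3) of the pair in control and 22.1 ± 0.86% (SD, n = 3) in miR182.
Cox8b, the muscle isoform of the smallest subunit, had 15.4, 13.6 and 12.7 CPM in control and 10.003, 9.98 and 10.1 CPM in miR182. Its groups did not overlap, and the log2 fold change was -0.47 (SE 0.079) beside -0.22 (SE 0.034) for Cox8a. The length offset brought Cox8a to -0.056 (adjusted p = 0.14 by edgeR). The share of Cox8b in the pair was 9.02 ± 0.54% (SD, n = 3) in control and 7.72 ± 0.21% (SD, n = 3) in miR182.
Cox6a2, the muscle isoform of another subunit, had 4.36, 3.83 and 4.25 CPM in control and 4.38, 5.05 and 5.42 CPM in miR182. These groups touch closely, and the value did not pass, but it was called higher with the length offset (0.39, adjusted p = 0.016 by edgeR) and without miR182 replicate 1 (0.34, adjusted p = 0.036 by edgeR). Its partner Cox6a1 fell, at -0.15 (SE 0.031), although an offset for transcript length brought it to 0.0093. Cox6a2 held 1.08 ± 0.073% (SD, n = 3) of its pair in control and 1.42 ± 0.12% (SD, n = 3) in miR182.
Cox6b2, known as a testis isoform, had 33, 28 and 23 reads in control and 13, 16 and 13 reads in miR182. It showed the largest fold of the members called, at -1.10 (SE 0.26, adjusted p = 0.0033 by edgeR), at a level of about 1 CPM in control. The testis isoforms Cox7b2 and Cox8c had 0 reads in every sample, which allows up to 3 reads per library. Differences between isoforms were not tested.

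**Figure D3:**
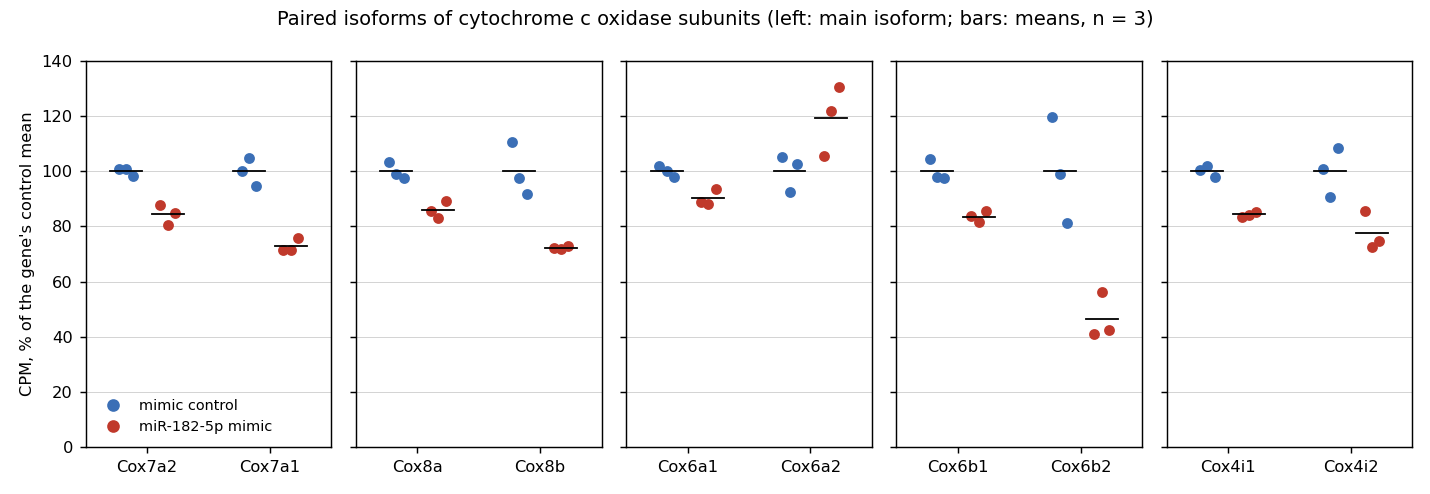
CPM of paired isoforms of complex IV subunits as a percent of each gene's control mean, 1 point per sample with the group means as lines (n = 3), the isoform made in most tissues on the left of each panel. Cox7a1 and Cox8b lie further below 100% than Cox7a2 and Cox8a, and the miR182 samples of Cox6a2 lie above its control samples.

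Cox7c, at -0.87 (SE 0.25), was the other member past 1.5-fold, with 32, 28 and 40 reads in control and 22, 23 and 14 reads in miR182. It shares 53.0% of its windows with processed pseudogenes, and its call was lost without control replicate 3 (-0.72, adjusted p = 0.062) and without miR182 replicate 3 (-0.66, adjusted p = 0.059, both by edgeR).

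Complex V, the ATP synthase, had 12 of 15 subunits lower. All 5 subunits of the F1 head and central stalk fell (Atp5a1, Atp5b, Atp5c1, Atp5d and Atp5e), as did all 4 of the peripheral stalk that holds the head in place (Atp5f1, Atp5h, Atp5j and Atp5o). Atp5e, the small epsilon subunit, had 93.0, 88.8 and 84.7 CPM in control and 74.7, 68.4 and 71.4 CPM in miR182, a log2 fold change of -0.31 (SE 0.042, adjusted p = 3.41e-05 by edgeR). Atp5f1, subunit b of the stalk, had 159.9, 161 and 152 CPM and then 133, 138 and 132 CPM, a log2 fold change of -0.23 (SE 0.032). Atp5c1, the rotating gamma subunit, had 208, 212 and 204 CPM and then 174, 181 and 184 CPM, a log2 fold change of -0.21 (SE 0.031). The groups lay apart in all 3 genes.
Atp5b, the catalytic beta subunit, was the highest member per length. It had 2113, 2151.5 and 2097 CPM in control and 1960.4, 1995 and 2044 CPM in miR182. The nearest samples of the groups were close, and the log2 fold change was -0.08 (SE 0.031, adjusted p = 0.035 by edgeR). Leaving out 1 sample ended the call in 4 of 6 cases, as did scaling by total counts, with -0.05 (adjusted p = 0.21 by edgeR), and the length offset, with -0.06 (adjusted p = 0.12 by edgeR).
In the c-ring that turns in the membrane, Atp5g3 held 99.8% of the reads per length in control and fell, at -0.19 (SE 0.028), a call that ended with the length offset, at -0.060 (adjusted p = 0.14 by edgeR). Atp5g1, with 51, 57 and 53 reads and then 73, 44 and 51 reads, was at -0.05 (SE 0.18), and Atp5g2, with 4 to 15 reads per sample, was at 0.67 (SE 0.42). Both overlapped between groups, and Atp5g2 shares 87.4% of its windows with processed pseudogenes. Reads of Atp5g2 can so be lost in counting. The 99.8% of Atp5g3 is therefore a share of the reads counted, from which the make-up of the c-ring family cannot be read. Atp5l, subunit g, shares 68.5% of its windows and had 19, 17 and 17 reads in control and 9, 10 and 17 reads in miR182, at -0.66 (SE 0.31, adjusted p = 0.095 by edgeR).

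Counting bears on which subunits can be read. Alignments that were not unique made up 39.1% to 39.8% of all lines tallied per sample and were kept off the genes, and 14 subunits share over 20% of their 50-base windows with another gene. The sharing is not all with pseudogenes, since only 0% of the windows of Ndufb9 and Cox5b and 0.74% of those of Ndufb2 lie in pseudogenes. Of those 14, 13 were tested and 9 fell, among them Atp5h (50.5% shared), Uqcrb (43.2%), Ndufb9 (23.4%) and Atp5f1 (23.2%). Without the 14, 60 of 64 tested subunits fell and the median log2 fold change was -0.23.

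The 5 genes that match by spelling showed no common direction. Ndufa4l2, which is induced by hypoxia and lowers complex I activity, was the 1 member that rose, from 63.8, 57.7 and 51.8 CPM to 73.3, 71.3 and 72.3 CPM, with no overlap and a log2 fold change of 0.32 (SE 0.057, adjusted p = 0.00036 by edgeR). Cox7a2l, an assembly protein of respiratory supercomplexes, was at -0.13 (SE 0.051, adjusted p = 0.051 by edgeR). It was called lower by limma-voom (-0.13, adjusted p = 0.044) and with upper-quartile factors (-0.14, adjusted p = 0.034 by edgeR). The same held without miR182 replicate 3 (-0.19, adjusted p = 0.0049 by edgeR). Cox4nb, a subunit of a membrane insertion complex of the endoplasmic reticulum, was at 0.08 (SE 0.044), Atp5s at -0.10 (SE 0.083) and Atp5sl at -0.01 (SE 0.072).

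Short transcripts are common among these genes, and transcript length moved with the fold change. Among the 77 subunits the Spearman correlation of log2 fold change with length was 0.53, and over 12997 genes it was 0.15. These are correlations across genes, which are not independent replicates, and the genes share the same 6 libraries. In transcripts up to 600 bases, 23 of 24 subunits fell with a median of -0.29, while the 209 other genes of that length had a median of -0.10, 24.9% of them lower and 5.74% higher. From 600 to 1000 bases the medians were -0.23 for 27 subunits and -0.12 for 621 other genes. Between 1000 and 2000 bases they were -0.20 for 20 subunits and -0.045 for 2840 other genes. The 6 subunits of 2000 to 4000 bases had a median of -0.15, beside 0.0062 for 5418 other genes. The median of the subunits lay below that of other genes in each of these classes. When an offset for length was fitted, which by construction takes away any group difference that follows length, 44 members were lower and 2 were higher, and the median moved from -0.22 to -0.11. In that fit, 2875 of 12997 genes were called lower and 2974 higher. Of the genes named here, Ndufb2, Ndufa4, Uqcr11, Uqcrc1, Uqcrfs1, Cox8a, Cox6a1, Atp5b, Atp5g3, Atp5h and Atp5j were among those no longer called lower.

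**Figure D4:**
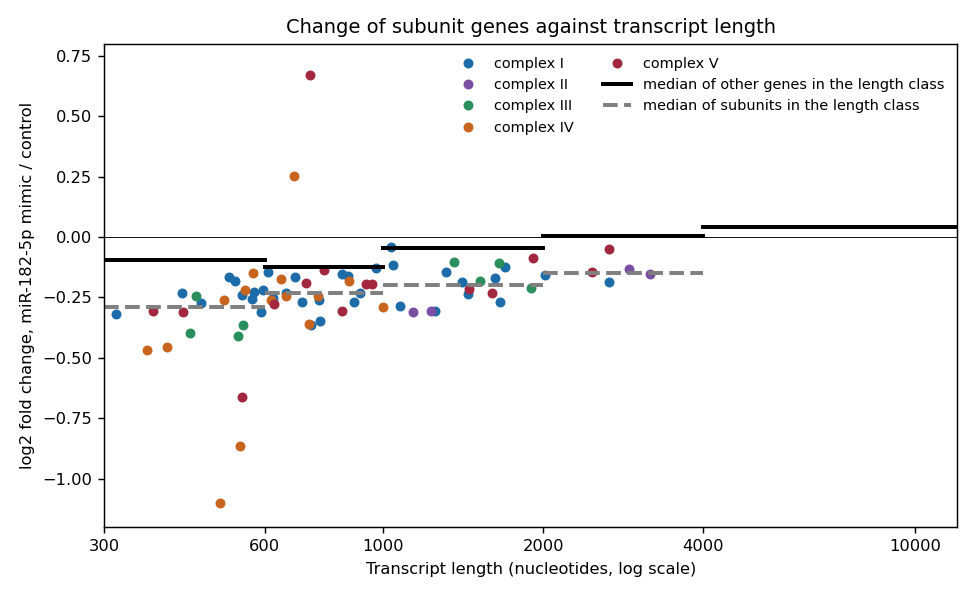
Log2 fold change against transcript length (median over the annotated transcripts of a gene, log scale) for the 77 subunits tested, coloured by complex, with the median of all other genes in each length class as solid lines and the median of the subunits as dashed lines. The dashed lines lie below the solid lines in all 4 classes that hold subunits, from -0.29 against -0.10 in the shortest to -0.15 against 0.0062 in the longest.

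Genes that work with the subunits moved in both directions, as did all genes tested, with 23.5% lower and 23.2% higher. Of 47 assembly factors tested, which build the complexes but are not part of them, 15 were lower (31.9%) and 4 higher (8.51%), with a median of -0.12. Ndufaf2 of complex I (-0.40), Lyrm7 of complex III (-0.46) and Pet100, listed as 2900053A13Rik, of complex IV (-0.48) fell. Uqcc of complex III (0.45) and Cox15, which makes heme a for complex IV (0.35), rose, as did Cox11 (0.21) and Coa5, listed as 6330578E17Rik (0.09). In coenzyme Q synthesis, 5 of 13 genes fell (38.5%) and 4 rose (30.8%). The kinase-like protein Adck3 had 15.9, 15.5 and 14.6 CPM in control and 7.47, 10.5 and 8.82 CPM in miR182, far apart at -0.78 (SE 0.10), and the methyltransferase Coq5 was at -0.44, whereas Coq4 was at 0.45 and Coq10b at 0.39. Cytochrome c, Cycs, at 5.54, 6.78 and 4.79 CPM and then 4.76, 5.05 and 5.63 CPM, overlapped between groups (-0.15, SE 0.13).

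Further lists were read for comparison, beside the 23.5% lower and 23.2% higher of all genes tested. Of 13 citric acid cycle enzymes 10 were lower and 0 higher, with a median of -0.17. Sucla2, of succinyl-CoA ligase, had 145, 151 and 149 CPM in control and 101, 96.6 and 105 CPM in miR182, a log2 fold change of -0.55 (SE 0.034), and Idh3a, of isocitrate dehydrogenase, was at -0.42, while citrate synthase Cs (-0.08, SE 0.037) did not pass. Of 74 mitochondrial ribosomal proteins 31 were lower and 4 higher, with a median of -0.12. Cytosolic ribosomal proteins, also short, had 23 of 78 lower and 0 higher and a median of -0.083. Their 85 listed genes summed to 7122 to 7375 CPM in control and to 6566 to 6989 CPM in miR182, without overlap. The windows these genes share with other genes were not measured, so reads lost in counting are not known for them. Under the length offset 7 cytosolic ribosomal genes were lower and 7 higher, with a median of 0.025. Without that offset, for the citric acid cycle and the cytosolic ribosome, edgeR at an unadjusted p under 0.05, DESeq2 and limma-voom also gave 0 genes higher. The difference between these lists and the subunits was not tested.

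**Figure D5:**
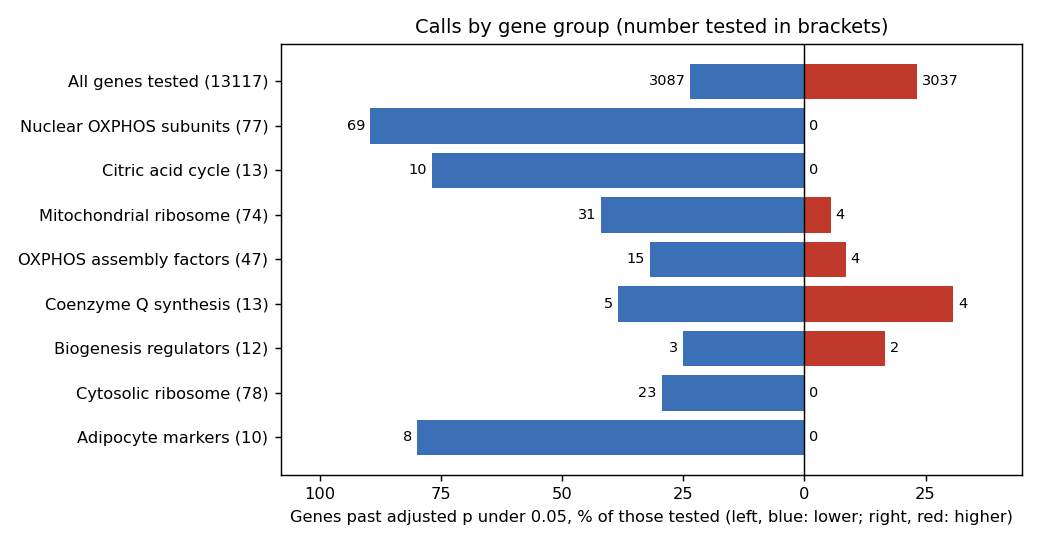
Percent of tested genes called lower (blue, to the left) or higher (red, to the right) at an adjusted p under 0.05 in edgeR's test, for all genes and for each gene group, with the numbers called beside the bars. The subunits have 69 of 77 called lower and 0 higher, beside 3087 lower and 3037 higher of 13117 genes.

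Of 12 tested regulators of mitochondrial genes, 3 were lower and 2 higher, beside 23.5% lower and 23.2% higher of all genes. The list was not limited to activators, since it also holds the corepressor Nrip1. Ppargc1a, which encodes the coactivator PGC-1α, had 4.09, 5.78 and 6.36 CPM in control and 5.00, 4.86 and 5.49 CPM in miR182. These groups overlapped, at -0.08 (SE 0.14). Its relative Ppargc1b had 11.8, 12.3 and 13.1 CPM in control and 6.10, 7.78 and 8.22 CPM in miR182, with no overlap, and fell, at -0.75 (SE 0.10, adjusted p = 3.05e-05 by edgeR). Tfb2m (-0.35), which starts transcription of mitochondrial DNA, and Gabpa (-0.11), which binds promoters of subunit genes, were lower. Pprc1 (0.13) and Yy1 (0.11) were higher. Tfam (0.10, SE 0.047), Nrf1 (0.06, SE 0.054) and Esrra (0.03, SE 0.045) did not pass. With total counts, where the median of all genes was 0.032, Tfam was called higher (0.14, adjusted p = 0.028 by edgeR).

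Promoters of subunit genes were read for short motifs of these regulators, since the members moved together. RefSeq (GRCm38.p6) gave a promoter, from 250 bases before to 50 after the start, for 66 of the 80 subunits and for 10283 genes tested. On either strand, the NRF1 core motif lay in 27.3% of subunit promoters and 14.9% of all, the YY1 core AAGATGGC in 15.2% and 5.20%, and the ERR core AAGGTCA in 12.1% and 3.79%. CCGGAAG, bound by GABP, lay in 24.2% and 19.7%, and CCAAT in 43.9% and 43.3%. GGGCGG, bound by SP1, was in 39.4% and 69.1%. These are matches of letters, not binding, and none was tested against the fold changes. As examples, the 250 bases before the start of the isoform pair Cox7a1 (chr7:30183921-30184170, plus strand) and Cox7a2 (chr9:79759854-79760103, minus strand) and of Sdhd (chr9:50603850-50604099, minus strand) are shown with matches in capitals. Cox7a1 holds CCAAT on the other strand, Cox7a2 holds GGGCGG, and Sdhd holds the NRF1 core and CCGGAAG on the other strand.
Cox7a1: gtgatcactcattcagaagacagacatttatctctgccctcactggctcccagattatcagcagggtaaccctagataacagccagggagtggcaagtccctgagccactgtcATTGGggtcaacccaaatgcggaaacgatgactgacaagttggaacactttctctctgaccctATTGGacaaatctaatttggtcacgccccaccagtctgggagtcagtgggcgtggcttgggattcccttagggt
Cox7a2: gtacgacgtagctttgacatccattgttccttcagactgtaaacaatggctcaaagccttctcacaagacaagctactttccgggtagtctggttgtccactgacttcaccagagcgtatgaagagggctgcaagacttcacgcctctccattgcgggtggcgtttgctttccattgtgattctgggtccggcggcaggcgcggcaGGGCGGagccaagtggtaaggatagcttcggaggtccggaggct
Sdhd: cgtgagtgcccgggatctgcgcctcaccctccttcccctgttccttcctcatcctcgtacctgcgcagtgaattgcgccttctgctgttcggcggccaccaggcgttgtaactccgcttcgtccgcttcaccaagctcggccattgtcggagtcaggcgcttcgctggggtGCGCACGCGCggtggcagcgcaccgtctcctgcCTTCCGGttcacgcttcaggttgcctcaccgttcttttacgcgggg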

How the data were processed

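Strand-specific poly(A) libraries of the 6 samples were counted by the authors, who deposited the unnormalized read counts of each gene. The submitters' processing notes name bcl2fastq, TopHat2, HTSeq and the build mm9, without versions. The 5 tally lines that close each list were left out. From these counts, edgeR 4.0.16 in R 4.3.3 (TMM, glmQLFit and glmQLFTest after filterByExpr at its default minimum of 10 counts, 2 groups, no block, two-sided) tested 13117 genes with Benjamini-Hochberg adjustment. CPM use TMM-scaled library sizes, with factors of 0.984 to 1.015. Named genes were the 3 members of each complex with the smallest p (2 for complex II), those past 1.5-fold, the highest per length, paired isoforms, members with another role, members with no reads and a few carriers and regulators. Ndufs8, Ndufv1, Atp5l, Adck3, Sucla2, Ppargc1b and others named within a list were chosen after their values were seen, and some genes that enter the counts are not reported here. Members and lists were chosen with earlier results of these data known. Transcript lengths, shared 50-base windows and 3′-UTRs came from GENCODE M21 on GRCm38, another build than the authors', so the coordinates printed are those of RefSeq's GRCm38.p6, and length was known for all 85 members. Symbols of lists were matched through RefSeq synonyms. Replicates of a group were not copies, since chi-square divided by degrees of freedom was 2.13 to 7.19 between their counts. The tests were tried on simulated counts with known changes. Depth of 25869810 to 28796712 reads limits precision for genes of few reads. Alternatives were DESeq2 1.42.0, limma-voom (limma 3.58.1), other scalings and filters, the replicate block, length or GC offsets (GC and the count without members over 20% shared windows chosen after seeing the data) and leaving out each sample. Figures used matplotlib 3.10.9.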

Additional observations from a re-analysis of the deposited data

How the results depend on the processing

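The number of members called lower was 63 to 70 under the other scalings, filters, DESeq2 (68) and limma-voom (70), 64 to 69 without 1 sample, and 67 with replicate numbers as the block. Deviations of same-numbered samples correlated at -0.18 to -0.044 and those of other pairs at -0.056 to 0.12. With 3 samples per group, deviations from a group mean constrain each other. These values therefore cannot tell whether the replicate numbers pair the samples. The block left 1 member higher, 2 lower past 1.5-fold, and 2 assembly factors higher. Of the 69 members, 61 were called lower in all 6 fits without 1 sample, 60 under every alternative that had no length offset, and 36 under all 18. The length offset moved the most counts, and under it 2875 of 12997 genes were lower and 2974 higher. With it, members lower numbered 44 (36 together with the block), complex I 19 (14), III 5 (5), V 7 (6), assembly factors 8 (6), mitochondrial ribosomal proteins 17 (15), and complex IV 7 with both. Medians, here with the genes matched by spelling in each complex, were -0.11 (-0.11) for members, -0.094 (-0.095) for I, -0.16 (-0.16) for III, -0.10 (-0.10) for IV and -0.096 (-0.096) for V. With total counts, where the median of all genes was 0.032, they were -0.19 for members, -0.19 for I, -0.19 for III, -0.21 for IV and -0.16 for V. Members higher numbered 2, 1 of them with a complex IV symbol, with total counts (Cox4nb) and with the length offset, alone or with the block (Cox6a2). Without 1 sample they numbered 1 to 3 (complex IV symbols 0 to 2), the most without miR182 replicate 1 (Cox4nb and Cox6a2 added). Cox4nb matches complex IV by spelling only. The block ended the call of Atp5b (-0.085, adjusted p = 0.092 by edgeR). Past 1.5-fold, 1 member was lower with block and length offset, 1 with few shared windows, and 1 to 2 without 1 sample, the fewest without control replicate 3. Assembly factors higher were 2 with upper-quartile factors and 2 to 5 without 1 sample, the fewest without replicate 2 of either group. Of the regulators, 1 was lower with DESeq2, and 1 was higher with DESeq2, upper-quartile factors, the length offset and both offset and block, and 1 to 2 without 1 sample. The median of complex III was -0.24 to -0.20 without 1 sample. With the length offset 73 members were negative, not 78. The signs that turned were those of Cox6a1 (0.0093, with block 0.0088), Ndufa4 (0.0046, 0.0047) and Ndufa3 (-0.17 to 0.0052), all 3 called lower without the offset, and of Ndufv3 (-0.04 to 0.047) and Atp5sl. Atp5sl turned with total counts (0.027), the length offset (0.014, with block 0.015), the GC offset (0.015, with block 0.016) and without 1 sample (-0.051 to 0.048), as did Atp5g1 (-0.25 to 0.062) and Ppargc1a (-0.25 to 0.051) without 1 sample. The cause of these changes was not tested beyond the offset's own construction.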
